A study of Mus musculus with 60 samples.

Results

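Oxidative phosphorylation genes encode the respiratory chain and the ATP synthase of mitochondria. The members were the protein-coding genes whose Gencode symbol begins with Ndufa, Ndufb, Ndufc, Ndufs, Ndufv, Uqcr, Cox4 to Cox8 or Atp5, together with Sdha, Sdhb, Sdhc, Sdhd, Cycs and Cyc1. The rule found 95 nuclear genes among the 46480 genes counted, of which 21534 are protein-coding. The rule also covers 13 genes encoded by mitochondrial DNA, among them the marker mt-Nd1. These 13 genes had no row in the count tables used here, so nuclear and mitochondrial genes could not be compared and mitochondrially encoded genes were not analysed here.

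RNA-seq was performed on tissue punched from the dorsal and ventral dentate gyrus (DG), the entry region of the hippocampal circuit, of male C57BL6J mice. Mice were weaned on day 22 into standard housing (SH, 3 mice per cage) or an enriched environment (EE, 12 mice in a larger cage with running wheels and other objects), remained there for 8 weeks and were collected at 80 days of age. Each sample pooled several mice, and the dorsal and ventral samples of a replicate number came from the same mice. There were 18 samples in 9 pools, with 4 samples of dorsal SH, 4 of ventral SH, 5 of dorsal EE and 5 of ventral EE, after SH replicate 3 was left out in both regions. The labels give no transgene and no agent in any group. Between 22919364 and 28301861 fragments per sample were counted on genes (median 25816352). The p values measure the spread between pools, not between single mice.

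Electrons from NADH enter the respiratory chain at complex I and those from succinate at complex II. Complex III passes them through cytochrome c to complex IV, which reduces oxygen, and complexes I, III and IV pump protons whose return through complex V (ATP synthase) drives the synthesis of ATP. Granule cells of the DG, like other neurons, draw most of the ATP for ion pumping and synaptic transmission from this pathway. Members fell into complex I (44 genes), complex II (4 genes), complex III with cytochrome c (10 genes), complex IV (20 genes) and complex V (17 genes). Complex I comprised 7 core subunits, which carry the redox centers, 29 accessory subunits and 8 assembly factors.

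Promoters are shown for members that differ in how they behave below. Uqcrh is a marker, Ndufaf5 had the largest well-counted difference between regions and Atp5j2 holds a YY1 motif. Sdha has the longest transcript of complex II, and Atp5g1, Atp5g2 and Atp5g3 encode the same mature protein. All were chosen after their values were seen. Each promoter spans 250 bases before to 50 bases after the RefSeq start (GRCm38.p6), written 5′ to 3′ on the strand of the gene. Capitals mark matches, on either strand, to the motifs NRF1 (GCGCA, any base, then GCGC), GABPA (CCGGAAGT), YY1 (AAGATGGCG) or ESRRA (TCAAGGTCA), named for transcription factors known for control of mitochondrial genes.
Uqcrh, chr4:116075021-116075320, minus strand: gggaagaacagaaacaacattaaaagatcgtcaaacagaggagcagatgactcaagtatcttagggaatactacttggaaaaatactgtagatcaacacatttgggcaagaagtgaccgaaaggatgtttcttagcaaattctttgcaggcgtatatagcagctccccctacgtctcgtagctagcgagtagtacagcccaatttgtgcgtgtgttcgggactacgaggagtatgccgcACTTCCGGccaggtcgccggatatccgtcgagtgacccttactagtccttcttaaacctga
Ndufaf5, chr2:140170396-140170695, plus strand: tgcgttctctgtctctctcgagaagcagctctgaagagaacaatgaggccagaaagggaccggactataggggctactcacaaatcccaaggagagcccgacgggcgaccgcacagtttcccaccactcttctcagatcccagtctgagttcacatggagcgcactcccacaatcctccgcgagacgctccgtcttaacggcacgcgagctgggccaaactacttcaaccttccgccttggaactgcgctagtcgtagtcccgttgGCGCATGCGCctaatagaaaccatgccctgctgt
Atp5j2, chr5:145191492-145191791, minus strand: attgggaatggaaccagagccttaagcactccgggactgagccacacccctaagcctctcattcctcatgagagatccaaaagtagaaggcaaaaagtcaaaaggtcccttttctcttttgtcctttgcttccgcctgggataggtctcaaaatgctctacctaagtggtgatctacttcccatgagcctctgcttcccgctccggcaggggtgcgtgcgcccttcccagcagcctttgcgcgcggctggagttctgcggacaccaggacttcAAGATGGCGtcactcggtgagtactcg
Sdha, chr13:74350191-74350490, minus strand: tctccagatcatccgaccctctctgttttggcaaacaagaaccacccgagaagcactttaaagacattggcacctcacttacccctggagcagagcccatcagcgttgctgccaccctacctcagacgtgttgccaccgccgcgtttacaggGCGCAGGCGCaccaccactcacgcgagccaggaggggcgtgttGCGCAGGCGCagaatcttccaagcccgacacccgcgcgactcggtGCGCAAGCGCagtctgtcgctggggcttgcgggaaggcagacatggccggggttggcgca
Atp5g1, chr11:96075582-96075881, minus strand: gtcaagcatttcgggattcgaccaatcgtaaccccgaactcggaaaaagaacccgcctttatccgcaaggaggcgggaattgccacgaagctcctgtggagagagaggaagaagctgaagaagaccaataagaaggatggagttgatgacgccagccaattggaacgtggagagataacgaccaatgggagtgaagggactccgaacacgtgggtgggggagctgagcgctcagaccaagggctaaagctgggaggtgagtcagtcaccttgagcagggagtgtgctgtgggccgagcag
Atp5g2, chr15:102670998-102671297, minus strand: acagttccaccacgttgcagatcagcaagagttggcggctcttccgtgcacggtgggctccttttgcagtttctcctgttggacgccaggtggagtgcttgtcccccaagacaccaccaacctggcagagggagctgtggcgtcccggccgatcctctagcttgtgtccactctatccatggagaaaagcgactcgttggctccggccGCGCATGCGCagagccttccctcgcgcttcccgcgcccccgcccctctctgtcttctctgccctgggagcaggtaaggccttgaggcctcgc
Atp5g3, chr2:73911277-73911576, minus strand: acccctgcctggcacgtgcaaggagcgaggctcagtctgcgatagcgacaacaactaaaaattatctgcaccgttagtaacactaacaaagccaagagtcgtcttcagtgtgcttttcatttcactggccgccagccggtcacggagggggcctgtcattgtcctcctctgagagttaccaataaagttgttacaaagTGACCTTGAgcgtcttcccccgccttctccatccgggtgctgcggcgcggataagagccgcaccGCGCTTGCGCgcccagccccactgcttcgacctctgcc

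The promoter of Uqcrh holds a GABPA motif, that of Ndufaf5 an NRF1 motif that reads alike on both strands, that of Atp5j2 a YY1 motif, and that of Sdha 3 NRF1 motifs. Atp5g2 has an NRF1 motif and Atp5g3 an NRF1 and an ESRRA motif, whereas none of the 4 motifs is in this window of Atp5g1. RefSeq promoters matched 75 of the 95 members by symbol, with 80 promoters in all. The NRF1 motif was in 25% of these promoters and in 4.60% of all 32851 promoters of the table. The YY1 motif was in 10% of members' promoters against 1.40% of all, the GABPA motif in 6.25% against 3.89%, and the ESRRA motif in 2.5% against 0.423%. A match describes these letters and is not evidence of binding.

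Levels were compared between genes per transcript length, as TPM rescaled so that protein-coding genes reach the same total in each sample (coding TPM). The median coding TPM over the 18 samples was highest for Atp5b, the catalytic beta subunit of ATP synthase (2622), followed by the complex IV subunits Cox8a (2349) and Cox4i1 (2186). The highest members of the other complexes were Uqcr11 of complex III (1182), Ndufb8 of complex I (1119) and Sdha, the flavoprotein of complex II (308). Accessory subunits of complex I ranged from 55.7 (Ndufa11) to 1119, with a median of 377. Assembly factors, which build complex I but are not part of it, had lower coding TPM, from 21.9 (Ndufaf6) to 91.2 (Ndufaf3). The testis isoform Cox8c was at 0 and was not tested. The other 94 members passed the filter of more than 10 counts in at least 2 samples.

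Dorsal DG had lower levels of oxidative phosphorylation genes than ventral DG. Counts scaled to library size by TMM (CPM), summed over the 94 members, were 10431, 11763, 10969 and 10714 in dorsal SH and 14072, 13487, 12922 and 12444 in ventral SH. In EE the sums were 10790, 12243, 10990, 11198 and 11186 in dorsal and 13781, 14618, 12976, 12732 and 12308 in ventral DG. The highest dorsal sample, EE replicate 2, lay below the lowest ventral sample, EE replicate 5, so the regions did not overlap. The ratio of the dorsal to the ventral sum of a pool was 0.842 ± 0.0511 (SD, n = 9 pools) and was below 1 in 9 of 9 pools. SH replicate 3, which was left out, had sums of 11433 in dorsal and 12887 in ventral DG when all 20 samples were scaled together.

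**Figure D1:**
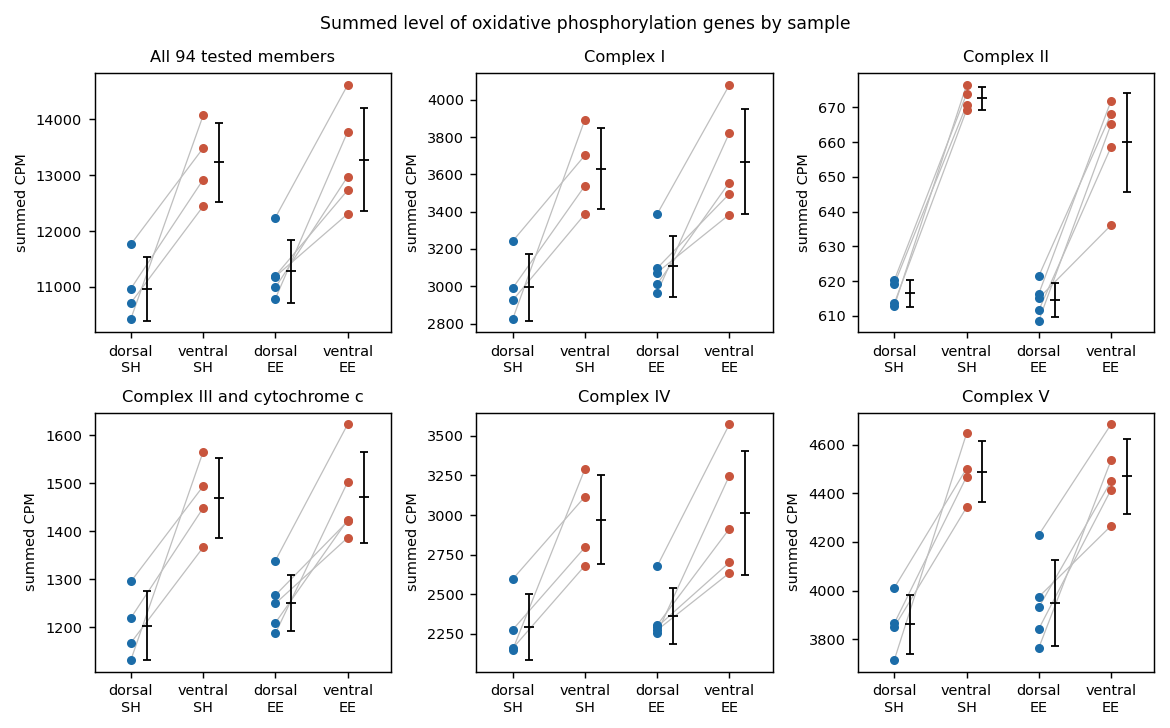
Summed CPM of the 94 tested members and of complexes I to V in each sample, with vertical axes that do not start at 0. Points are samples (dorsal blue, ventral red), gray lines join the samples of a pool, and black bars give the group mean ± SD; every line rises from dorsal to ventral, and the dorsal points of all members (up to 12243) lie below the ventral ones (from 12308).

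Among the complexes the ratio was lowest for complex IV and highest for complex II. It was 0.784 ± 0.0713 (SD, n = 9 pools) for complex IV, 0.839 ± 0.0571 for complex I, 0.838 ± 0.0546 for complex III with cytochrome c, 0.873 ± 0.0392 for complex V and 0.925 ± 0.0174 for complex II, each below 1 in 9 of 9 pools. Within complex I the ratio was 0.816 ± 0.0638 for accessory subunits and 0.902 ± 0.0470 for core subunits. No test was made of these differences between complexes. Transcript length also differed, with a median of 572 bases for complex IV subunits and 1440 for complex II. With the correction for transcript length described below, complex IV was no longer lowest. The median log2 fold changes of members were then -0.14 for complex III with cytochrome c, -0.13 for complex IV, -0.12 for complexes V and I and -0.05 for complex II. As a share of coding TPM, members took 4.40% ± 0.234 in dorsal SH (SD, n = 4), 5.25% ± 0.296 in ventral SH (n = 4), 4.52% ± 0.207 in dorsal EE (n = 5) and 5.29% ± 0.341 in ventral EE (n = 5). With TPM as deposited, in which protein-coding genes held only 12.5% to 23.7% of the total, the ratio was 0.926 ± 0.123, with 7 of 9 pools below 1, while those of complex II (1.04 ± 0.178), the complex I core subunits (1.03), the complex IV related genes (1.06) and cytochrome c (1.04) lay above 1. With coding TPM the ratio was 0.849 ± 0.0493, below 1 in 9 of 9 pools.

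Gene by gene, 83 of the 94 members were lower in dorsal DG and 0 were higher by edgeR's quasi-likelihood test over both housings (adjusted p under 0.05). Among all 17040 tested genes, 29.3% were lower and 29% were higher. The median log2 fold change (dorsal against ventral) of members was -0.28 and ranged from -1.43 to -0.00, negative in 94 of 94, beside a median of -0.00 over all tested genes. A difference of at least 20% was called for 52 members, beside 16.8% of tested genes that were lower by this amount. With a correction for transcript length, described below, 81 members were negative and 13 positive, and the counts were 57 lower, 3 higher and 5 lower by at least 20%, beside 27.3%, 29.7% and 14.7% of tested genes. In 24 members the 9 dorsal samples all lay below the 9 ventral ones, beside 9.44% of tested genes, and in 0 members they all lay above, beside 9.51%. In 77 members the dorsal sample was the lower in all 9 pools, beside 20.4% of tested genes. In bulk tissue, fewer cells of a type and less RNA per cell cannot be told apart.

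**Figure D2:**
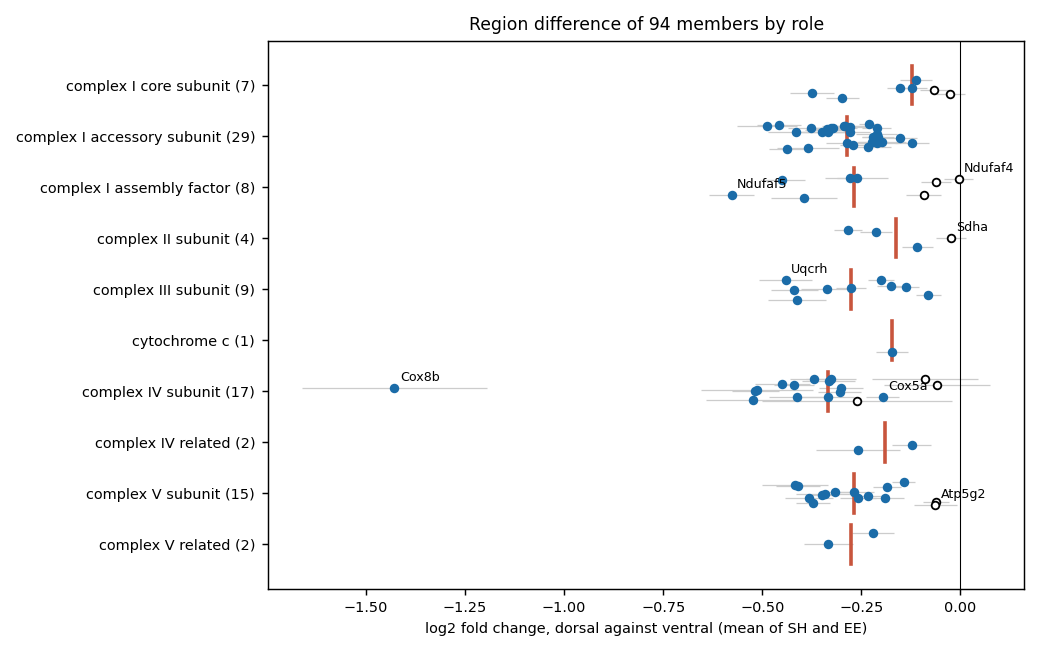
Log2 fold change of each member (dorsal against ventral DG, mean of SH and EE) by role, with the number of members in parentheses. Filled points passed an adjusted p of 0.05, open points did not, gray bars give the standard error and red bars the median of the role; the points lie left of 0, with medians from -0.12 for complex I core subunits to -0.34 for complex IV subunits.

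Complex I was lower in 39 of 44 members (median -0.28). Its accessory subunits, which surround the catalytic core, were lower in 29 of 29 (median -0.29), with Ndufb8, Ndufb6 and Ndufa12 at the largest differences (-0.49, -0.46 and -0.44). The level of Ndufb8 is uncertain because its expected count was 1.90 times its count of uniquely mapped fragments, and the same holds for Ndufs5 (1.55) and Ndufb2 (3.05), and outside complex I for Cycs (2.15) and the ATP synthase subunit Atp5l (2.73). Core subunits were lower in 5 of 7 (median -0.12), but with the length correction 3 were lower and 2 higher (median -0.02). Among them Ndufs8, which binds iron-sulfur clusters, fell by 0.37 on the log2 scale (SE 0.0561), whereas Ndufs1, the largest core subunit, differed by -0.03 (SE 0.0362) and Ndufs3 by -0.07 (SE 0.0370), neither past the test. Of the assembly factors 5 of 8 were lower, and Ndufaf1, Ndufaf3 and Ndufaf4 did not pass the test (-0.06, -0.09 and -0.00). Over both housings, Ndufaf3 alone among the 94 members changed its call when the pool was added to the model as a block, to an adjusted p of 0.0269 from 0.0742.

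Ndufaf5 (chr2:140170649-140203689, mm10, plus strand), an assembly factor that modifies Ndufs7, showed the largest difference of the members with more than a few counts. Its CPM was 27.5, 35.9, 29.6 and 27.5 in dorsal SH, 49.1, 47.6, 47.8 and 40.1 in ventral SH, 29.1, 33.9, 30.0, 33.3 and 31.9 in dorsal EE and 49.8, 51.7, 42.0, 43.3 and 43.4 in ventral EE. The 9 dorsal samples all lay below the 9 ventral ones. It fell by 0.58 on the log2 scale (SE 0.0572, edgeR adjusted p = 1.46e-08). Ndufaf2 and Ndufaf6, which are also needed for complex I assembly, fell by 0.45 and 0.39 on the log2 scale.

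Complex II, which is also an enzyme of the citrate cycle, differed least (3 of 4 lower, median -0.16). Sdha (chr13:74322254-74350280, minus strand) had CPM of 345, 315, 335 and 334 in dorsal SH, 317, 332, 340 and 357 in ventral SH, 341, 293, 334, 320 and 325 in dorsal EE and 334, 303, 341, 339 and 328 in ventral EE. The regions overlapped throughout, and the difference was -0.02 (SE 0.0370, adjusted p = 0.607). The membrane anchor Sdhd fell by 0.28 on the log2 scale (SE 0.0358, adjusted p = 5.73e-07) with no overlap between regions, the iron-sulfur subunit Sdhb by 0.21 and the other anchor Sdhc by 0.11.

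Complex III subunits were lower in 9 of 9 (median -0.28), and Cycs, the mobile electron carrier cytochrome c, differed by -0.17 (SE 0.0411) and was called, with -0.19 by expected counts. Uqcrh (chr4:116066965-116075071, minus strand), the hinge protein between cytochrome c1 and cytochrome c, had CPM of 139, 170, 148 and 136 in dorsal SH, 231, 217, 192 and 177 in ventral SH, 152, 175, 150, 154 and 156 in dorsal EE and 225, 260, 197, 184 and 187 in ventral EE. The highest dorsal value, that of EE replicate 2, lay just under the lowest ventral value, that of SH replicate 5. Uqcrh fell by 0.44 on the log2 scale (SE 0.0658, adjusted p = 5.61e-06). Uqcr10 and Uqcr11, small membrane subunits, fell by 0.42 and 0.41, while the Rieske iron-sulfur protein Uqcrfs1 fell by only 0.08 (SE 0.0308, adjusted p = 0.0285).

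Complex IV subunits were lower in 14 of 17 (median -0.34), and of the 2 related genes both were lower. The calls of these related genes were near the threshold (edgeR adjusted p = 0.0352 for Cox7a2l and 0.0402 for Ndufa4l2). Of 17 settings without the length correction, Cox7a2l was called lower in 12 and Ndufa4l2 in 7. Neither was called within SH, within EE or with the length correction. Cox7b (X chromosome), a small subunit of the complex, fell by 0.52 on the log2 scale (SE 0.0588, adjusted p = 1.22e-07). Its CPM was 124, 152, 136 and 127 in dorsal SH, 212, 205, 188 and 172 in ventral SH, 136, 150, 134, 142 and 135 in dorsal EE and 216, 235, 196, 173 and 171 in ventral EE, without overlap. The abundant subunits Cox8a, Cox6b1 and Cox4i1 fell by 0.45, 0.42 and 0.41 on the log2 scale.

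The marker Ndufa4 (chr6:11900292-11907497, minus strand), named for complex I but a subunit of complex IV, had CPM of 184, 229, 198 and 189 in dorsal SH, 291, 265, 239 and 233 in ventral SH, 202, 241, 198, 193 and 189 in dorsal EE and 287, 295, 245, 223 and 215 in ventral EE. Dorsal SH replicate 2 and dorsal EE replicate 2 reached into the ventral range, and 9 of 9 pools were lower in dorsal DG. Ndufa4 fell by 0.33 on the log2 scale (SE 0.0670, adjusted p = 0.000199). The marker Cox5a (chr9:57521274-57532426, plus strand), which sits on the matrix side of the complex, had CPM of 97.6, 112, 110 and 107 in dorsal SH, 136, 132, 121 and 115 in ventral SH, 105, 118, 106, 122 and 114 in dorsal EE and 125, 131, 130, 124 and 115 in ventral EE. Dorsal EE replicates 2 and 4 reached into the ventral range, although 9 of 9 pools were lower in dorsal DG, and the difference was -0.20 (SE 0.0418, adjusted p = 0.000362). Unstranded counts of Cox5a were only 0.392 times those on its strand, and the difference was -0.22 with them.

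**Figure D3:**
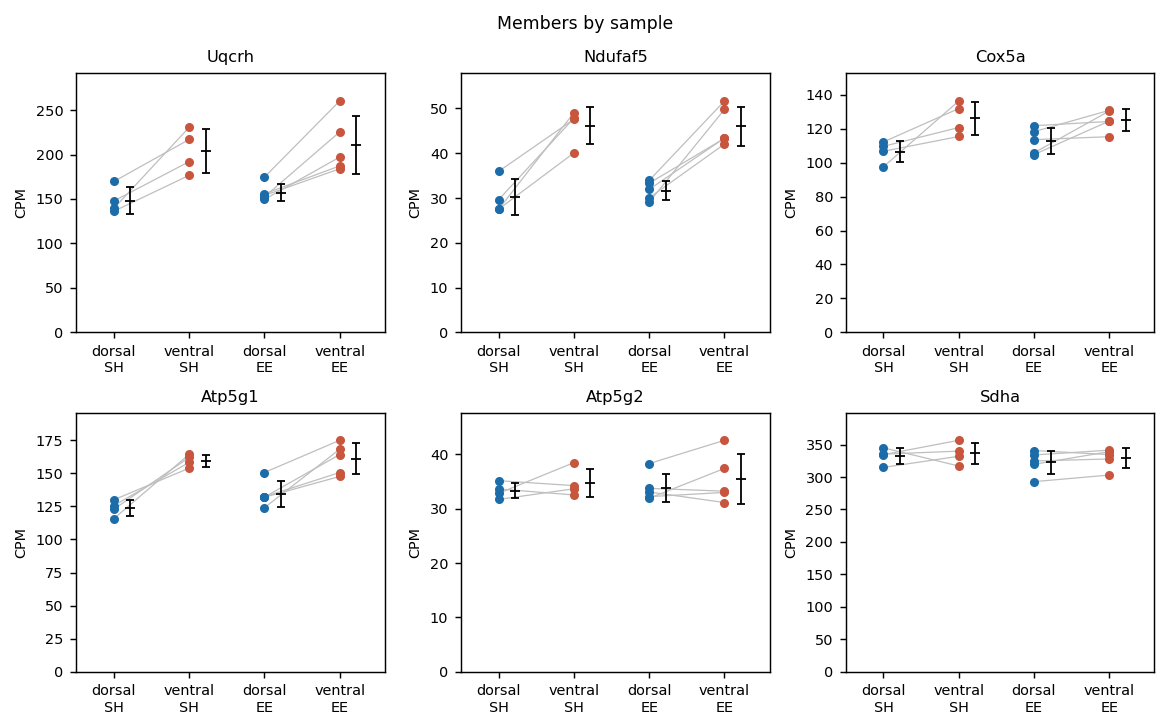
CPM of 6 members in each sample, with axes from 0. Points are samples (dorsal blue, ventral red), gray lines join the samples of a pool and black bars give the group mean ± SD; Uqcrh and Ndufaf5 are separated by region, Cox5a and Atp5g1 are lower in dorsal DG in 9 of 9 pools, and the regions overlap for Atp5g2 and Sdha.

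Complex V subunits were lower in 13 of 15 (median -0.27). Subunits of the membrane sector and stalk such as Atp5e, Atp5j2 and Atp5k fell by 0.42, 0.41 and 0.38 on the log2 scale. Atp5b, the most abundant member, had CPM of 1127, 1151, 1160 and 1174 in dorsal SH, 1306, 1275, 1298 and 1293 in ventral SH, 1126, 1240, 1156, 1169 and 1187 in dorsal EE and 1251, 1273, 1297, 1307 and 1271 in ventral EE. The regions did not overlap, and the difference was small (-0.14, SE 0.0301, adjusted p = 0.000303). Atp5a1, the alpha subunit that forms the catalytic head with Atp5b, differed by -0.06 (SE 0.0321) and did not pass the test.

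The c ring of ATP synthase, through which protons return, is encoded by Atp5g1, Atp5g2 and Atp5g3. Atp5g1 had CPM of 116, 130, 123 and 126 in dorsal SH, 164, 154, 162 and 158 in ventral SH, 124, 151, 132, 132 and 132 in dorsal EE and 168, 175, 164, 151 and 148 in ventral EE, and only dorsal EE replicate 2 reached the ventral range. Atp5g1 fell by 0.32 on the log2 scale (SE 0.0407, adjusted p = 7.24e-07) and Atp5g3 by 0.19 (SE 0.0352), while Atp5g2 differed by -0.06 (SE 0.0537, adjusted p = 0.323). Of the summed TPM of the 3 genes, Atp5g1 took 36.3% ± 0.991 in dorsal SH (SD, n = 4) and 40.4% ± 1.11 in ventral SH (n = 4), and 37.6% ± 0.601 in dorsal EE and 41.0% ± 1.27 in ventral EE (n = 5 each). The share of Atp5g2 was higher in dorsal DG, at 20.1% ± 0.565 against 17.5% ± 0.797 in SH and 19.7% ± 0.615 against 17.7% ± 0.786 in EE. Reads shared among the 3 genes or their pseudogenes make the level of Atp5g2 uncertain, since its expected count was 2.19 times its count of uniquely mapped fragments.

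Tissue-specific isoforms of complex IV, known from heart, muscle, lung or testis, were scarce. By TPM, Cox4i2, Cox6a2, Cox6b2, Cox8b and Cox7b2 each made up less than 1% of the pair formed with the common isoform, in the mean of each group, and Cox7a1 1.54% to 1.85%. Cox8b had the largest difference of any member (-1.43, SE 0.233, adjusted p = 1.73e-05), but only 2 to 28 counts per sample. Its CPM was 0.251, 0.288, 0.299 and 0.223 in dorsal SH, 0.424, 0.789, 0.527 and 1.02 in ventral SH, 0.258, 0.414, 0.285, 0.0816 and 0.140 in dorsal EE and 0.621, 0.543, 0.862, 0.630 and 0.630 in ventral EE, without overlap. Cox7a1 and Cox6b2 fell by 0.52 and 0.51 on the log2 scale, while Cox4i2, Cox6a2 and Cox7b2 did not pass the test (-0.06, -0.09 and -0.26). Cox7a2l, a factor that joins complexes III and IV, took 45.9% ± 1.02 of the TPM it shares with Cox7a2 in dorsal SH and 41.0% ± 0.504 in ventral SH (SD, n = 4 each).

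In each housing the direction was the same. In SH 75 members were lower in dorsal DG and 0 higher (median -0.30), beside 20.8% of tested genes that were lower and 20.9% that were higher. In EE 73 were lower and 0 higher (median -0.26), beside 23.6% and 22.9% of tested genes. A difference of at least 20% was called for 53 members in SH and 46 in EE, beside 14.2% and 15.8% of tested genes. Of the members, 71 were lower in both, which is 94.7% of the SH list and 97.3% of the EE list. This overlap was not counted for all tested genes, so it cannot be called particular to the members. The SH count rested on SH replicate 1 more than on the other pools, since it was 45 without that pool.

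The difference between regions went with transcript length over the whole transcriptome. Members are short (median length 721 bases, against 2708 for other tested protein-coding genes), and other short protein-coding genes also had negative medians in dorsal DG. Cytosolic and mitochondrial ribosomal proteins were left out of these other genes, here and in the ranges that follow. Other protein-coding genes of 500 to 700 bases had a median log2 fold change of -0.20, those of 1000 to 1500 bases -0.13, those of 2000 to 3000 bases -0.02 and those over 5000 bases 0.14. Members had medians of -0.33, -0.22 and -0.06 in the first 3 of these ranges, and -0.28 against -0.20 at 700 to 1000 bases. Below 500 bases the medians were -0.36 for 12 members and -0.06 for 78 other genes. Across the 94 members, the difference and log2 length had Pearson's r = 0.493 and Spearman's rho = 0.542, as a description over genes that share the same libraries. The trend varied among samples: SH replicate 2 and EE replicate 2, the dorsal samples with the highest summed CPM of members, were also the only dorsal samples in which genes of 700 bases lay above the mean of all samples.

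The test was therefore repeated with the length trend of each sample, estimated on protein-coding genes other than members and ribosomal proteins, entered as an offset. This alternative was chosen after the data were seen. With it 57 members were lower and 3 higher (median -0.12), beside 27.3% of tested genes that were lower and 29.7% that were higher. Those lower by at least 20% went from 52 to 5, beside 14.7% of tested genes. These 5 were Cox8b (-1.22), Ndufaf5 (-0.44), Cox7b (-0.34), Ndufb8 (-0.30) and Ndufb6 (-0.27). Uqcrh (-0.24) and Ndufa4 (-0.13) remained called. Cox5a (-0.01, adjusted p = 0.800), Atp5b (-0.02) and Atp5g3 (-0.00) did not pass the test, and neither did Cox7a1 and Cox6b2 (both -0.31). Within SH 48 were lower and 1 higher, beside 19.2% and 19.9% of tested genes, and in EE 49 were lower and 1 higher, beside 22.6% and 23.7%. Those lower by at least 20% were 4 in SH and 7 in EE, beside 12.3% and 14.5%. The 3 higher members over both housings were Atp5g2 (0.12) and the core subunits Ndufs3 (0.09) and Ndufs7 (0.07). The call of Ndufs7 thus reversed, since it was lower without the correction (-0.11, adjusted p = 0.0243).

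**Figure D4:**
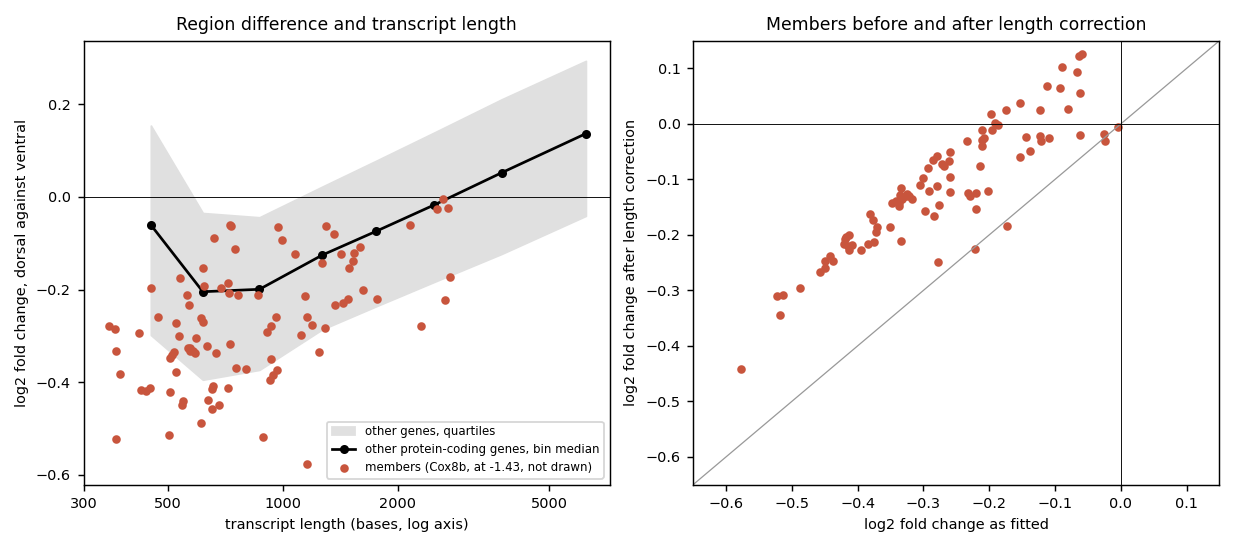
Left, log2 fold change (dorsal against ventral) against transcript length in bases on a log axis, with members as red points. The black line and gray band give bin medians and quartiles of other protein-coding genes, ribosomal proteins left out. Right, members before and after the length correction, with the gray line marking equal values; most members move toward 0, from a median of -0.28 to -0.12, and Cox8b is not drawn in either panel.

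Some markers of other cells also differed between the samples. Their counts are to be read beside all tested genes, of which 29.3% were called lower and 29% higher in dorsal DG. All 6 choroid plexus markers were lower in dorsal DG, with summed CPM of 22.5 to 208 in dorsal and 388 to 1420 in ventral samples. All 7 granule cell markers were higher in dorsal DG (1058 to 1289, against 544 to 788 in ventral samples), as were 4 of 5 markers of thalamus and habenula. Of the other lists, 3 of 5 astrocyte markers and 3 of 5 interneuron markers were lower in dorsal DG and 1 interneuron marker was higher, while 0 of 4 endothelial, 1 of 5 microglial (lower) and 1 of 5 oligodendrocyte markers (higher) passed the test, and of 7 mossy and CA pyramidal cell markers 3 were higher and 2 lower. Within ventral DG the samples with the lowest choroid plexus sums, SH replicate 1 and EE replicate 2 (388 and 416), had the highest sums of members (14072 and 14618), and the sample with the highest choroid plexus sum, EE replicate 3, had a member sum of 12976. SH replicate 1 and EE replicate 2 were also the ventral samples in which genes of 700 bases lay farthest above the mean of all samples. Their deviations were 0.210 and 0.259 on the log2 scale. The part of these cells in the region difference of members was not tested.

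No member was called between EE and SH in either region. In dorsal DG 0 of 94 members passed edgeR's test, beside 0.716% of tested genes, with 2 members at an unadjusted p under 0.05 (4 by DESeq2, of which 0 were called). The median log2 fold change (EE against SH) was 0.05, and 79 of 94 were positive, beside 8280 of the 17040 tested genes. With the length correction the median was 0.01 with 52 positive and 42 negative, and with each pool left out it was 0.02 (without EE replicate 2) to 0.10 (without SH replicate 2). In ventral DG 0 members were called, beside 0.246% of tested genes, with 1 at an unadjusted p under 0.05 (1 by DESeq2, 0 called), and the median was 0.02 (-0.03 to 0.05 with each pool left out). Among the 87 members with a mean count of at least 100, the differences ranged from -0.10 to 0.15 in dorsal and from -0.08 to 0.09 in ventral DG. The interaction of region and housing was called for 0 members, beside 0.00587% of tested genes, and had an unadjusted p under 0.05 for 0 by edgeR and 0 by DESeq2 (median 0.04).

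The summed CPM of members was 11281 ± 563 in dorsal EE (SD, n = 5) and 10969 ± 573 in dorsal SH (n = 4), a ratio of 1.03, or 1.01 without EE replicate 2 and 1.05 without SH replicate 2. In ventral DG it was 13283 ± 919 in EE and 13231 ± 704 in SH, a ratio of 1.00, or 0.979 without EE replicate 2 and 1.03 without SH replicate 1. With all pools, the differences in both regions were smaller than the SD within groups. Without SH replicate 2, dorsal SH was at 10705 ± 269 (n = 3), and the dorsal difference was larger than the SD of either group. The largest EE differences were those of the muscle isoform Cox6a2, at 0.40 in dorsal (adjusted p = 0.562) and 0.43 in ventral DG (adjusted p = 0.596). Its CPM was 1.54, 0.905, 1.15 and 0.968 in dorsal SH, 1.36, 1.91, 1.54, 1.10 and 1.68 in dorsal EE, 1.13, 1.43, 1.42 and 0.877 in ventral SH and 1.63, 1.81, 1.68, 1.69 and 1.37 in ventral EE. The groups overlapped in both regions.

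**Figure D5:**
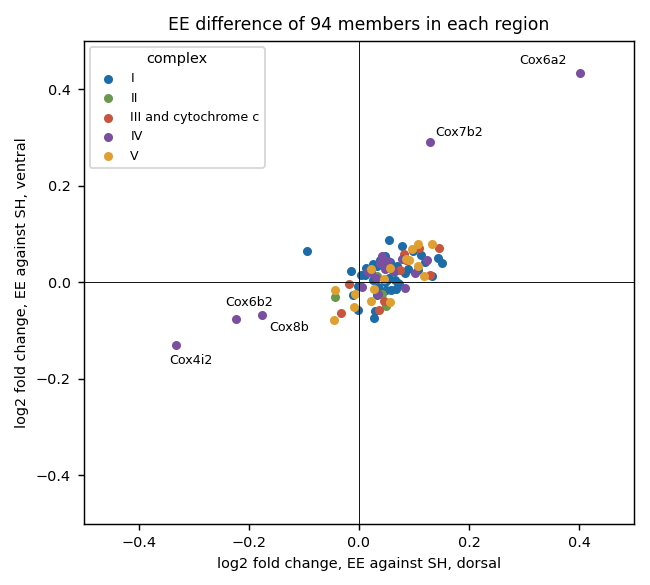
Log2 fold change of EE against SH in dorsal (horizontal) and ventral DG (vertical) for the 94 members, colored by complex. Most points lie close to 0, with dorsal and ventral medians of 0.05 and 0.02, and the labeled members farther out are isoforms of complex IV with few counts; 0 members passed the test in either region.

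Other genes of energy metabolism also differed between regions, and their counts stand beside the 29.3% lower and 29% higher among all tested genes. Assembly factors outside the naming rule were lower in dorsal DG in 26 and higher in 4 of 46 (median -0.14), with Cmc2 and Sdhaf4, which serve complexes IV and II, at -0.56 and -0.42, and the heme A synthase Cox15 at 0.24. Citrate cycle and pyruvate dehydrogenase genes were lower in 9 and higher in 0 of 16 (median -0.16) and negative in 16 of 16, among them Suclg2 (-0.35) and Idh3a (-0.30). Glycolysis genes were lower in 9 and higher in 1 of 16 (median -0.18). The glycolytic gene that rose was the neuronal enolase Eno2 (0.20), and the astrocytic aldolase Aldoc had the largest fall (-0.48). Genes for ATP export and carriers were lower in 8 and higher in 1 of 15 (median -0.11), with Usmg5, a small protein of the ATP synthase dimer, at -0.57.

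Genes for mitochondrial DNA maintenance and expression were lower in 10 and higher in 5 of 31 (median -0.01). The length correction turned these counts to 4 lower and 9 higher. Without it, the largest called rises were those of the RNA-binding protein Fastkd5 (0.36) and the DNA polymerase Polg (0.16). The largest called falls were those of Fastkd2 and Pnpt1. Regulators of mitochondrial biogenesis were higher in 9 and lower in 5 of 18 (median 0.12). Sirt1, a deacetylase, and the coactivator Ppargc1b were at 0.42 and 0.39, whereas Sirt3, the mitochondrial deacetylase, and the nuclear receptor Ppara were at -0.36 and -0.33. With the length correction the medians were -0.05 for assembly factors, -0.09 for the citrate cycle, -0.13 for glycolysis, -0.02 for ATP export, 0.04 for mitochondrial DNA genes and 0.07 for the regulators. Members whose promoter holds an NRF1 motif had a median difference of -0.23 (19 members), against -0.30 for those without it (56 members). With the length correction the medians were -0.12 and -0.13.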

How the data were processed

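RNA-seq of dorsal and ventral DG was used (20 of the 60 samples of the series), and samples were grouped by region and housing from their titles. Per the labels, libraries were stranded total RNA. The submitters' processing notes name Trim Galore 0.4.0, STAR 2.5.1b, RSEM 1.2.30 and mm10. The count per gene deposited by the authors is the number of uniquely mapped fragments, without normalization, and the column for the reverse strand was used. The expected count deposited by the authors shares out fragments that fit several genes, and was rounded for use as an alternative. TPM deposited by the authors allows for transcript length and for the sum over all genes, and gave levels and shares. FPKM was also deposited by the authors, per kilobase and fragment total, and was not used. Lines that name no gene held 32.6% to 40.9% of all fragments and were left out. Bisulfite libraries were not used here.

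The members, lists and printed promoters were chosen with earlier results of these data known. The study excluded an SH sample for high expression of Xist, an RNA that it describes as limited to females. The labels give no number for that sample. SH replicate 3 was taken to be it and was left out in both regions. Tests were run on 17040 genes, those over 10 counts in 2 or more of the 18 samples, with edgeR 4.0.16 (R 4.3.3) by its TMM scaling and quasi-likelihood F test, with 4 group means and Benjamini-Hochberg adjustment over all tested genes. The region result is the mean of the differences in SH and EE. A standard error is the size of the log2 difference divided by the square root of F. Members named are the markers, the member of highest TPM and the 2 largest called rises and falls in each complex, isoform pairs and Atp5g1, Atp5g2 and Atp5g3. Other members named were chosen after their values were seen. Genes named from a pathway list are among its 2 largest called rises and falls, not all of which are named. The length correction fits, in each sample, a lowess of log2 CPM deviations on log2 transcript length. Both procedures were tested on simulated data, the length correction with the same linear length trend in all dorsal samples. Trends that differ between samples, as seen here, were not simulated. Neither was the weaker difference of other genes below 500 bases, so the correction was not checked for these cases. Intervals of counting error are not given, and at this depth members with few counts had the largest errors.

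Same-numbered dorsal and ventral samples came from the same mice per the study. Their deviations from group means correlated at 0.0827 on average (-0.0840 to 0.189, over 0.1 in 4 of 9 pools), so the data give little sign of this pairing. Counts and ratios by pool and the block by pool rest on the assumption. Alternatives were DESeq2 1.42.0, RLE size factors, expected and unstranded counts, no filter, all 20 samples, the joint test of both housings, fits of one region, the replicate block, each pool left out and, added later, the length correction and coding TPM. Tables and plots were made in python 3.11.15 with pandas 2.3.3, numpy 2.4.6 and matplotlib 3.10.9.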

Additional observations from a re-analysis of the deposited data

Results flagged for a closer look

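Dorsal EE replicate 2 stood apart from the other dorsal EE samples in the summed CPM of members (12243, against 10790 to 11198) and of complex IV (2677, against 2256 to 2305). The same sample was farthest above the others of its group for Atp5e (123), Atp5g2 (38.3), Cox4i1 (519), Cox7a2l (151), Ndufa4 (241), Ndufb8 (107), Uqcr10 (107), Uqcr11 (159) and Uqcrh (175), all in CPM. These genes share a library, so the values are not independent of each other. Cox4i2 was low in dorsal SH replicate 1 (1.08 CPM), Ndufaf5 was low in ventral SH replicate 5 (40.1 CPM) and Cox8b was high in ventral EE replicate 3 (0.862 CPM). Each gap was large for the range of its group by Dixon's test at 95%, which flags about 1 in 20 groups by chance, and 14 of 148 groups examined were flagged.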

How the results depend on the processing

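Over both housings, members called lower in dorsal DG numbered 77 to 84 with other tools, scalings, filters, counts and samples and 76 to 84 with each pool left out, and those lower by at least 20% 49 to 55 and 42 to 55. Of the members, 76 were lower in each of 17 such settings and 57 in all 19 settings, those with the length correction included. With the length correction, chosen after the data were seen, members higher in dorsal DG numbered 3 over both housings, 1 in SH and 1 in EE, in place of 0. Those lower numbered 48 in SH, and those lower by at least 20% numbered 5 over both housings, 4 in SH and 7 in EE. The length correction with the replicate block gave 3 higher and 5 lower by at least 20%. Atp5g2 was positive with the length correction (0.12) and with the length correction and block (0.12), and Cox7a2l likewise (0.025 and 0.026), and 13 of the 94 members were positive with the length correction. With each pool left out, members lower in SH numbered 45 to 82, with 45 without SH replicate 1, and those lower by at least 20% 31 to 58. In EE they numbered 55 to 75 and 32 to 50. The replicate block (the pool) gave 84 lower over both housings, 81 in SH and 77 in EE, in place of 83, 75 and 73. For EE against SH, same-numbered samples of a region correlated at 0.126 on average (0.0815 to 0.175), with 7 of 8 pairs over 0.1, and 9 of 16 samples correlated best with their own number (7 of 8 in dorsal, 2 of 8 in ventral DG). This is a hint from the data of a shared factor. The sources used here name none, and 1 pair was under 0.1, so the numbers were not taken to pair these samples. The block by number gave 9 members at an unadjusted p under 0.05 in dorsal DG and 0 called. EE against SH and the interaction had 0 called members in each alternative run. The summed ratio of dorsal to ventral over all members was below 1 by CPM, TPM as deposited and coding TPM, but that of complex II was above 1 (1.04) with TPM as deposited. Library sizes without mitochondrially encoded genes were not run, since those genes had no counts here. Ndufb2 was uncertain by counting, at -0.33 with expected counts against -0.15.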
